A study of Chlamydomonas reinhardtii with 6 samples.

Results

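The genes described here are 8 nucleus-encoded genes of photosynthetic electron transport and of the chloroplast ATP synthase in the unicellular green alga Chlamydomonas reinhardtii, out of 17741 gene models in the deposited table. They were picked by identifier: PETC, PETM and PETO of the cytochrome b6f complex, PETF and FNR1 at the acceptor side of photosystem I, and ATPC, ATPD and ATPG of the ATP synthase. These names belong to the list of identifiers. The table and the reference gene table carry no symbols, so the names were not checked against either. Poly-A RNA of strain CC-4532 was sequenced from 3 cultures with 1000 µM manganese and 3 cultures with 6 µM manganese, the control level. All 6 were separate flasks of Tris-acetate-phosphate medium from 1 starter culture, grown in continuous light and harvested in mid-logarithmic growth, so the cells had acetate as well as light. Both groups therefore share 1 strain and 1 inoculum.

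Values are FPKM, by definition fragments per transcript length and per number sequenced, although how these libraries were scaled was not given. Being per length, they allow a rough comparison of levels between genes. The absolute depth is unknown. Steps between low values put the reads behind 1 FPKM at 0.713 to 1.03 in the 1000 µM libraries and 1 to 1.12 in the 6 µM libraries, relative to 6 µM replicate 1. The summed FPKM was 689724 to 767912 in the 1000 µM libraries and 629620 to 719323 in the 6 µM libraries. On the first principal component of all tested genes, which held 57.8% of the variance, 1000 µM replicate 3 and 6 µM replicate 1 scored 24.9 and 12.4. The other 4 libraries scored between -12.9 and -3.67. As 1 library of each group stood apart in this way, differences are also given inside this pair and among the other 4 libraries. The pair was picked from these scores. A difference inside it sets 1 library against 1, so it has no measure of spread. What set the pair apart was not tested.

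In oxygenic photosynthesis the cytochrome b6f complex takes electrons from plastoquinol, passes them to a soluble carrier that reduces photosystem I, and moves protons into the thylakoid lumen. Photosystem I reduces ferredoxin, and ferredoxin-NADP+ reductase uses reduced ferredoxin to make NADPH. The proton gradient drives the chloroplast ATP synthase, whose central stalk turns inside a head held in place by a peripheral stalk. In green algae the subunits of both complexes are encoded partly in the nucleus and partly in the chloroplast, and the genes treated here are nuclear. Manganese itself is a cofactor of the oxygen-evolving centre upstream of them, and the comparison asks how their transcripts differ when the metal is supplied in excess.

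None of the 8 genes was absent or under 1 FPKM. Their 48 values ran from 416 to 4137 FPKM, and by mean level they ranked between 29 and 198 of all 17741 gene models. PETF stood highest with a mean of 3690.2 FPKM over the 6 libraries, above ATPG (1743 FPKM) in 6 of 6 libraries with no overlap of their ranges. ATPG exceeded PETM (1387 FPKM) in 4 of 6 libraries, and PETM exceeded ATPC (1365 FPKM) in 4 of 6, so neither pair kept 1 order. ATPG was above ATPC in 6 of 6 libraries, with overlapping ranges. ATPD (998 FPKM) lay below ATPC in every library, although their ranges overlapped. FNR1 (781 FPKM) lay below ATPD, and PETC (641 FPKM) below FNR1, without overlap. PETO (554 FPKM) was below PETC within each library, with overlapping ranges.

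Levels of these 8 genes did not differ detectably between 1000 µM and 6 µM manganese. None passed an adjusted p of 0.05 (limma, Benjamini-Hochberg adjusted over all tested genes), and the adjusted p was 0.99997 for each. Among all 12543 tested genes the share called was 0%. None of the 8 had an unadjusted p under 0.05, which 2.82% of all tested genes had. The differences of log2(FPKM + 1), 1000 µM minus 6 µM, lay between -0.01 and 0.27. For all 8 the 95% confidence interval stayed inside a 2-fold change in either direction, and for 7 it stayed inside a 1.5-fold change. ATPG was the exception. The median difference was 0.08, beside 0.01 over all tested genes and 0.09 over the 677 abundant genes, those averaging 100 FPKM or more. It was above 0 for 7 of the 8 genes, for 53.7% of all tested genes and for 81.2% of those 677. Bringing the libraries to equal summed FPKM shifts the difference of every abundant gene by about -0.09. The median was then -0.01 for the 8, -0.06 for all tested genes and 0.0013 for the 677, so signs close to 0 depend on this choice of scale. After quantile normalization it was -0.03 for the 8, with 2 of 8 above 0, beside 0.01 for all tested genes and -0.01 for the 677. Single libraries moved it as well. The median of the 8 was 0.00094 when 1000 µM replicate 2 was left out and 0.0050 when 6 µM replicate 1 was, each with 4 of 8 above 0. It was 0.18 when 1000 µM replicate 3 was left out, with 8 of 8 above 0.

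**Figure D1:**
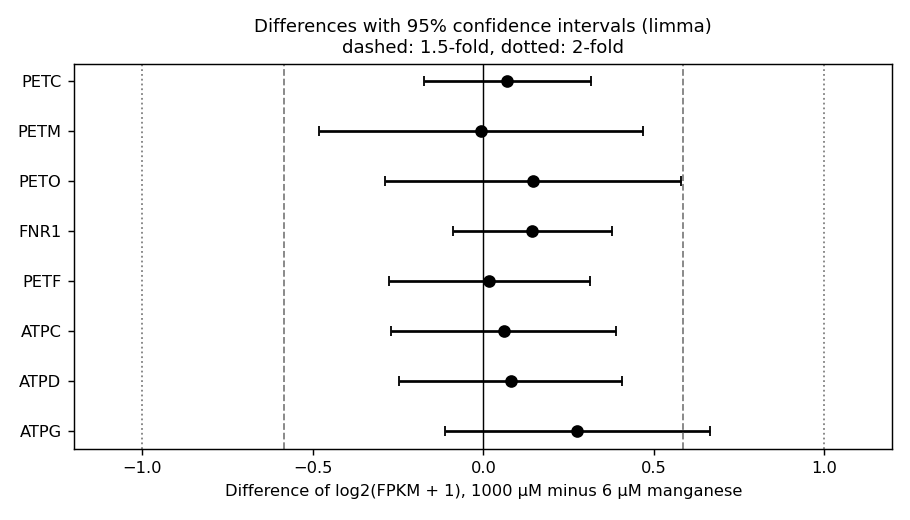
Difference of log2(FPKM + 1), 1000 µM minus 6 µM manganese, for each gene (points) with its 95% confidence interval from limma (bars). Each interval includes 0, and the one of ATPG alone reaches past the dashed line at a 1.5-fold change, to 0.66.

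Among the cytochrome b6f genes, PETC encodes the Rieske iron-sulfur protein, which takes the first electron from plastoquinol. Cre11.g467689.v5.5 (PETC) lies on chromosome 11 from 1181185 to 1184519 of assembly v5.5. Its levels were 666, 679 and 623 FPKM in 1000 µM replicates 1, 2 and 3, against 631, 587 and 657 FPKM in 6 µM replicates 1, 2 and 3. The groups overlapped, and the means were 656 ± 29.6 FPKM in 1000 µM cultures and 625 ± 35.4 FPKM in 6 µM cultures (mean ± SD of 3 flasks each). Its log2 difference was 0.07, with an interval from -0.17 to 0.31, and was -0.02 inside the pair and 0.12 among the other 4 libraries. PETC varied little, its highest library being 1.16 times its lowest.

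PETM encodes a small membrane-spanning subunit of the complex. Cre12.g546150.v5.5 (PETM), on chromosome 12 from 8701908 to 8702841, had 1457, 1631 and 1062 FPKM in the 1000 µM libraries, against 1055, 1551 and 1565 FPKM in the 6 µM libraries. A single library in each group was low, and they were the pair that stood apart. The means were 1384 ± 291 FPKM in 1000 µM cultures and 1390.5 ± 291 FPKM in 6 µM cultures (mean ± SD of 3 flasks each). With a log2 difference of -0.01 and an interval from -0.48 to 0.47, PETM had the widest interval of the 8. It was 0.01 inside the pair and -0.02 among the other 4 libraries.

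PETO encodes a phosphoprotein that associates loosely with the complex and is known from Chlamydomonas. Cre12.g558900.v5.5 (PETO), on chromosome 12 from 7159595 to 7161857, had 617, 674 and 455 FPKM at 1000 µM, against 416, 573 and 586 FPKM at 6 µM. The same pair of libraries was low, and the groups overlapped. The means were 582 ± 114 FPKM in 1000 µM cultures and 525 ± 94.5 FPKM in 6 µM cultures (mean ± SD of 3 flasks each). Its log2 difference was 0.15, with an interval from -0.29 to 0.58, and was 0.13 inside the pair and 0.15 among the other 4 libraries.

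**Figure D2:**
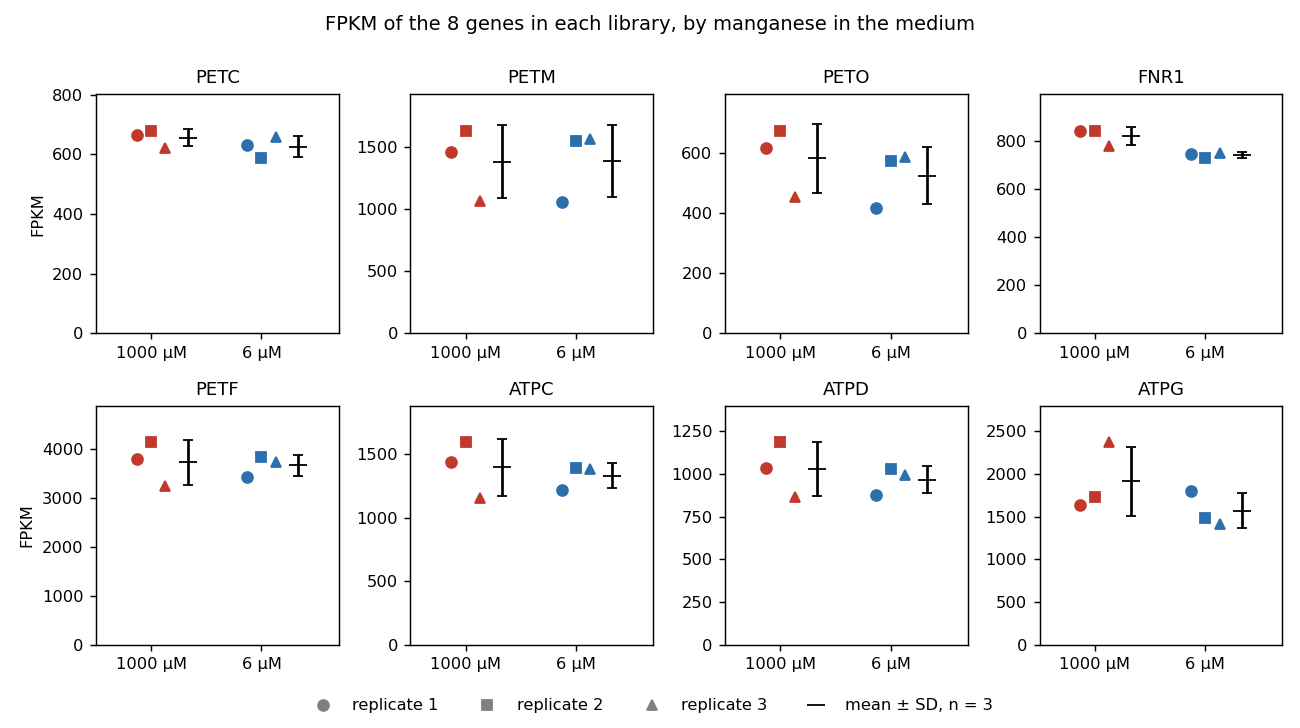
FPKM of each gene (vertical axes start at 0 and differ between panels) in the 1000 µM and the 6 µM libraries, 1 symbol per replicate number, with the mean and SD of 3 beside them. Groups overlap in each panel but that of FNR1, where the 1000 µM libraries had 778 to 842 FPKM and the 6 µM libraries 727 to 751 FPKM.

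At the acceptor side of photosystem I, PETF encodes the main photosynthetic ferredoxin, the soluble iron-sulfur carrier that photosystem I reduces. Cre14.g626700.v5.5 (PETF), on chromosome 14 from 2717256 to 2718504, had 3794, 4137 and 3228 FPKM at 1000 µM, against 3412.5, 3833 and 3736 FPKM at 6 µM. The 6 µM values lay inside the range of the 1000 µM values. The means were 3720 ± 459 FPKM in 1000 µM cultures and 3661 ± 220.3 FPKM in 6 µM cultures (mean ± SD of 3 flasks each), a log2 difference of 0.02 with an interval from -0.28 to 0.31. It was -0.08 inside the pair and 0.07 among the other 4.

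FNR1 encodes ferredoxin-NADP+ reductase, the flavoenzyme that makes NADPH. Cre11.g476750.v5.5 (FNR1), on chromosome 11 from 2688429 to 2692590, had 839, 842 and 778 FPKM at 1000 µM, against 747, 727 and 751 FPKM at 6 µM. All 1000 µM libraries were above all 6 µM libraries, and FNR1 was the only one of the 8 genes whose groups did not overlap. Among all tested genes 4.34% had such a separation with the 1000 µM libraries higher. The means were 820 ± 36.4 FPKM in 1000 µM cultures and 742 ± 12.6 FPKM in 6 µM cultures (mean ± SD of 3 flasks each). The log2 difference was 0.14, with an interval from -0.09 to 0.38 and an unadjusted limma p of 0.196. It was 0.06 inside the pair and 0.19 among the other 4 libraries. The separation was lost when the libraries were brought to equal sums, where 0.662% of all tested genes still had it, and after quantile normalization, where 3.72% did. Of the 677 abundant genes, 13 had it at equal sums and 17 after quantile normalization, against 104 with the values as deposited. As a fold the difference was 1.10, with an interval from 0.939 to 1.30. Separate groups are easier to reach with fewer libraries, and the pair that stood apart was picked from these same data. The number of the 8 genes with separate groups changed when libraries were left out. It was 5 without 1000 µM replicate 3, when 9.62% of all tested genes were so separated. It was 2 without 6 µM replicate 1, beside 12.7%, and 6 without both, beside 18.3%, in each case with the 1000 µM libraries higher. Of the 677 abundant genes, 15.4% were separated in this direction with all 6 libraries, 24.8% when 1000 µM replicate 3 was left out, 27.5% when 6 µM replicate 1 was, and 37.1% when both were.

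In the ATP synthase, ATPC encodes the gamma subunit, the turning central shaft, whose activity in chloroplasts is under redox control. Cre06.g259900.v5.5 (ATPC), on chromosome 6 from 1525413 to 1528648, had 1438, 1599 and 1157 FPKM at 1000 µM, against 1219, 1392 and 1386 FPKM at 6 µM. The 6 µM values fell inside the 1000 µM range. The means were 1398 ± 223 FPKM in 1000 µM cultures and 1332 ± 98.2 FPKM in 6 µM cultures (mean ± SD of 3 flasks each). Its log2 difference was 0.06, with an interval from -0.27 to 0.39, and was -0.07 inside the pair and 0.13 among the other 4 libraries.

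ATPD encodes the delta subunit, which joins the peripheral stalk to the head. Cre11.g467569.v5.5 (ATPD), on chromosome 11 from 337493 to 339583, had 1033, 1188 and 867 FPKM at 1000 µM, against 879, 1029 and 995 FPKM at 6 µM. Again the 6 µM values fell inside the 1000 µM range. The means were 1029 ± 161 FPKM in 1000 µM cultures and 967 ± 78.9 FPKM in 6 µM cultures (mean ± SD of 3 flasks each). Its log2 difference was 0.08, with an interval from -0.25 to 0.41, and was -0.02 inside the pair and 0.13 among the other 4.

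ATPG encodes a membrane-anchored subunit of the peripheral stalk. Cre11.g481450.v5.5 (ATPG), on chromosome 11 from 3536403 to 3537655, had 1636, 1735 and 2377 FPKM at 1000 µM, against 1805, 1487 and 1418 FPKM at 6 µM. The library at 2377 FPKM was 1000 µM replicate 3, and the groups overlapped only because 6 µM replicate 1 exceeded 1000 µM replicates 1 and 2. The means were 1916 ± 403 FPKM in 1000 µM cultures and 1570.1 ± 207 FPKM in 6 µM cultures (mean ± SD of 3 flasks each). ATPG had the largest log2 difference of the 8 genes, 0.27, with an interval from -0.11 to 0.66 and an unadjusted limma p of 0.143. It was 0.40 inside the pair and 0.21 among the other 4 libraries. Without 1000 µM replicate 3 it was 0.11.

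Within both groups, ATPG and 5 of the other genes deviated in opposite directions in the libraries that stood apart, a pair found from these data and not given by the labels. PETM, PETO, PETF, ATPC and ATPD were lower in both 1000 µM replicate 3 and 6 µM replicate 1 than in any of the other 4 libraries, and ATPG was higher in both. Such a position was held by 21.4% of all tested genes on the low side and by 24.5% on the high side. Among the 677 genes of at least 100 FPKM, 29.2% were low in both and 21.6% high in both. PETC and FNR1 held neither position. With log2 deviations from its own mean of 0.47 in 1000 µM replicate 3 and 0.07 in 6 µM replicate 1, ATPG was above its mean in both. PETM was at -0.36 and -0.37 in the same libraries.

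**Figure D3:**
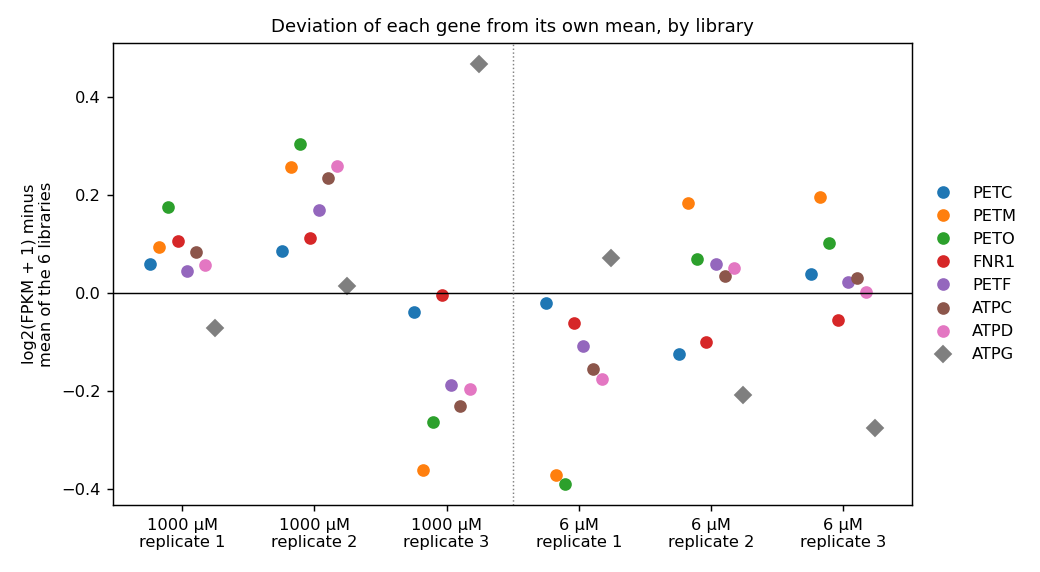
Deviation of log2(FPKM + 1) of each gene from its own mean over the 6 libraries (vertical axis), by library (horizontal axis, 1000 µM left of the dotted line). In 1000 µM replicate 3, 7 of the 8 genes lie below 0 and ATPG (diamonds) lies at 0.47; in 1000 µM replicate 2 all 8 lie above 0.

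Ratios between genes within a library do not depend on the scaling of that library. ATPC over ATPD was nearly constant, at 1.39, 1.35 and 1.34 in the 1000 µM libraries and 1.39, 1.35 and 1.39 in the 6 µM libraries. ATPG over ATPD was not, with 1.58, 1.46 and 2.74 at 1000 µM and 2.05, 1.44 and 1.43 at 6 µM. The high values belonged to the pair of libraries that stood apart, and the groups overlapped. PETM over PETC was 2.19, 2.40 and 1.71 at 1000 µM and 1.67, 2.64 and 2.38 at 6 µM, with its low values in the same pair. PETO over PETC averaged 0.883 ± 0.136 in 1000 µM cultures and 0.842 ± 0.164 in 6 µM cultures (mean ± SD of 3 flasks each). PETF over FNR1 averaged 4.53 ± 0.381 in 1000 µM cultures and 4.94 ± 0.354 in 6 µM cultures (mean ± SD of 3 flasks each), and its groups overlapped too.

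**Figure D4:**
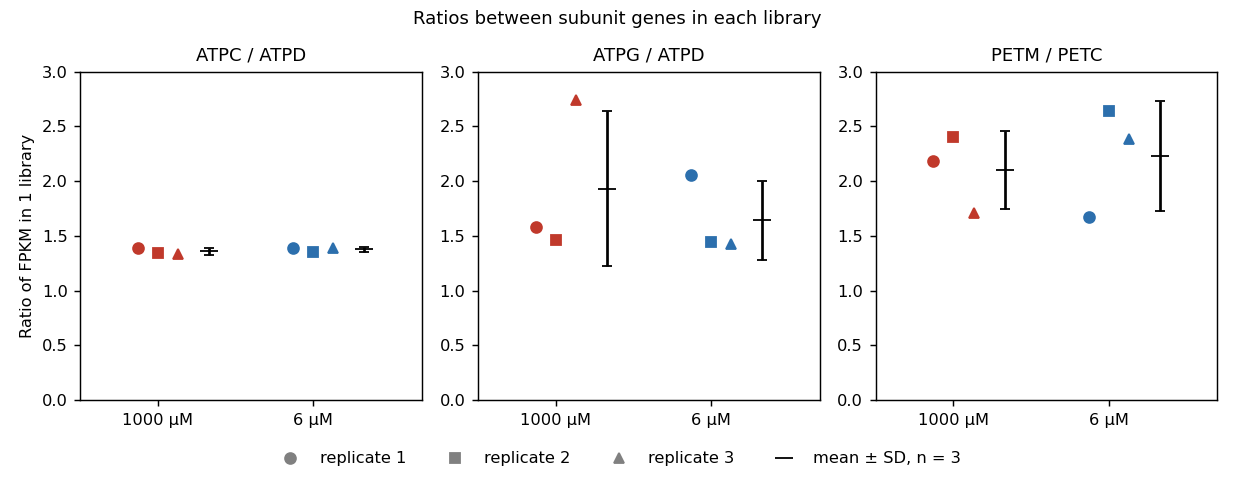
Ratio of FPKM between a pair of genes in the same library (vertical axes from 0 to 3) for the 1000 µM and the 6 µM libraries, with mean and SD of 3. ATPC over ATPD stays between 1.34 and 1.39, while ATPG over ATPD runs from 1.43 to 2.74.

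Together the 8 genes held 1.60% ± 0.0595 of the summed FPKM at 1000 µM and 1.60% ± 0.0384 at 6 µM (SD, n = 3 each). Their summed level was 11481, 12486 and 10547 FPKM at 1000 µM, against 10165, 11179 and 11094 FPKM at 6 µM. The lowest sum of each group came from the library that stood apart. In RNA pooled from a culture, a difference in every cell and a difference in some of the cells cannot be told apart.

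**Figure D5:**
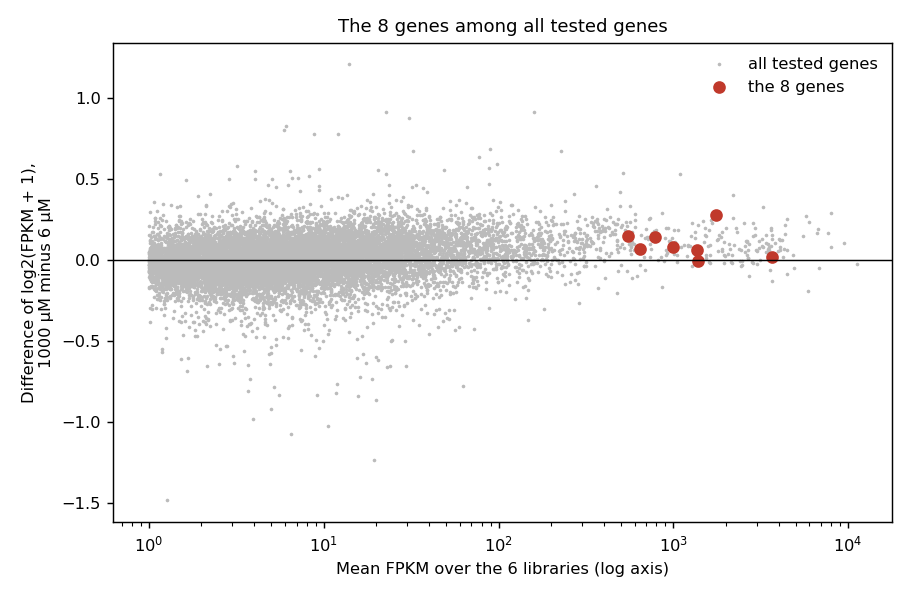
Difference of log2(FPKM + 1), 1000 µM minus 6 µM (vertical axis), against mean FPKM over the 6 libraries (horizontal log axis) for the 12543 tested genes (grey) and the 8 genes described here (red). The 8 genes lie between -0.01 and 0.27, among other abundant genes.

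By position, 4 of the 8 genes lie on chromosome 11, in the order ATPD, PETC, FNR1 and ATPG. They are not neighbours, since 841601, 1503909 and 843812 bp separate them. The 4 had log2 differences of 0.08, 0.07, 0.14 and 0.27. No other gene model in the reference table of this assembly overlaps any of the 8.

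A list of 17 further identifiers was compiled from general knowledge for photosynthetic electron transport and its regulation, and was meant to cover soluble carriers, other ferredoxins, cyclic and chlororespiratory electron flow, flavodiiron proteins and state-transition kinases. No file names these identifiers, so membership of the list was not checked and single genes are given without a name or role. Of the 17, 16 were tested, and none passed the adjusted threshold in either direction (limma). At an unadjusted p under 0.05 there was 1, with a higher mean at 1000 µM, beside 2.82% of all tested genes. The median log2 difference of the 16 was 0.16, with 13 of 16 above 0, beside 0.01 and 53.7% over all tested genes and 0.09 and 81.2% over the 677 abundant ones. Neither set matches the list in level, which ran from 1.17 FPKM (Cre16.g658400.v5.5) to 8135 FPKM (Cre03.g182551.v5.5) in 1000 µM cultures. Over all genes averaging 5 FPKM or more the median was 0.03, with 61.8% above 0. Leaving out 1000 µM replicate 3 brought the median of the 16 to 0.08, with 13 of 16 above 0. It was also 0.08 with 10 of 16 above 0 at equal summed FPKM, and 0.06 with 11 of 16 above 0 after quantile normalization. That 1 gene, Cre03.g183850.v5.5, had 36.3, 39.4 and 42.1 FPKM at 1000 µM, against 30.9, 32.9 and 32.7 FPKM at 6 µM. Its groups did not overlap, as was so for 3 of the 16 with the 1000 µM libraries higher. Such a separation was held by 4.34% of all tested genes and by 15.4% of the 677 abundant ones. The log2 difference of Cre03.g183850.v5.5 was 0.28, with an interval from 0.05 to 0.51 (adjusted p = 0.99997 in limma). It was 0.43 inside the pair that stood apart and 0.20 among the other 4 libraries. The largest difference in the list was 0.56, in Cre17.g700950.v5.5, with 11.4 ± 3.42 FPKM in 1000 µM cultures and 7.41 ± 2.57 FPKM in 6 µM cultures (mean ± SD of 3 flasks each) and an interval from -0.03 to 1.15. It was 0.87 inside the pair and 0.40 among the other 4. Cre07.g334800.v5.5 followed at 0.32, with 77.7 ± 22.9 FPKM in 1000 µM cultures and 60.9 ± 10.6 FPKM in 6 µM cultures (mean ± SD of 3 flasks each), and was 0.50 inside the pair and 0.23 among the other 4. The gene that was not tested, Cre16.g651050.v5.5, was chosen for mention after its values were seen. It was listed at 0.022, 0 and 0 FPKM at 1000 µM, against 0.092, 0.11 and 0.10 FPKM at 6 µM, too low for a fold to be given.

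By profile over the 6 libraries, Cre12.g557078.v5.5, Cre07.g312150.v5.5 and Cre09.g404050.v5.5 were closest to the mean profile of the 8 genes among all tested genes, with Pearson's r of 0.994, 0.994 and 0.991 as a measure of likeness over 6 libraries. The best of 12543 profiles over so few libraries are high by selection, and the profiles share the depth of the libraries, their 2 groups and the pair that stood apart. These genes were at 7.13 ± 0.508, 1.26 ± 0.341 and 1.12 ± 0.156 FPKM at 1000 µM and at 6.74 ± 0.384, 1.06 ± 0.198 and 0.980 ± 0.112 FPKM at 6 µM (SD, n = 3 each), far below the 8. The mean profile does not stand for all 8 genes, each of which is part of it. ATPG correlated with it at -0.395, PETC at 0.597 and FNR1 at 0.692. PETM, PETO, PETF, ATPC and ATPD correlated with it at 0.855 to 0.968.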

How the data were processed

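The data are FPKM values, 1 per gene model and culture, in a table that the authors deposited. The submitters' processing notes name Cuffdiff 2.2.1, STAR and CASAVA, without roles. For the build, the strand option, scaling and settings, values were not given in the sources used here. FPKM values do not keep the depth, so no counting interval can be given, and reads that paralogous genes share could not be assessed. Libraries were grouped by their titles, and 0 sample columns were unused. The replicates are separate flasks from 1 inoculum. The p-values therefore measure the spread between such flasks.

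From these values, log2(FPKM + 1) was computed for the 12543 genes averaging 1 FPKM or more, and compared by a two-sided moderated test in limma (version 3.58.1, R 4.3.3; lmFit, eBayes with a mean-variance trend). Adjustment was by Benjamini-Hochberg over all tested genes, at a threshold of 0.05. Intervals are 95% intervals from moderated standard errors, unadjusted for the number of genes. Identifiers were matched by locus tag to RefSeq's gene table of assembly Chlamydomonas_reinhardtii_v5.5, which covered 17738 of 17741 and all 8 genes, with symbols for 0 of the 8. Positions are those of that assembly. The 8 genes, the list of 17 identifiers and the alternatives were chosen with earlier results of these data known. From the list, genes with an unadjusted p under 0.05 and the 2 with the largest absolute difference are given, besides the 3 genes of most similar profile. The numbers of the libraries were not treated as pairs. Alternatives were other pseudocounts, filters and scalings, a replicate block, other forms of eBayes, library quality weights, a residual component as covariate, and leaving out libraries. Omitting the filter was run over all 17741 gene models and also, a choice made after its count was seen, without the genes at 0 in every library.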

Additional observations from a re-analysis of the deposited data

How the results depend on the processing

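In all 20 alternatives none of the 8 genes passed the adjusted threshold. FNR1 and ATPG kept their direction in 20 of 20, with log2 differences of 0.04 to 0.19 and 0.11 to 0.38. Their limma adjusted p was at least 0.397 and 0.244. The smallest unadjusted limma p was 0.0431 for FNR1 and 0.00438 for ATPG, where the first component of the residuals entered the model and so took up part of the spread. That component came from these same data, and 1519 of the 12543 tested genes then had p under 0.05, against 354 in the main fit. With quality weights the unadjusted limma p of FNR1 was 0.0493, where 1272 genes were under 0.05. The 6 genes other than FNR1 and ATPG changed sign under some settings. Equal summed FPKM shifts every abundant gene by about -0.088, with the median of all tested genes at -0.061, and there PETC was at -0.018, PETF at -0.071, ATPC at -0.029 and ATPD at -0.0073. After quantile normalization these 4 were at -0.051, -0.082, -0.041 and -0.014, and PETO was at -0.0021. With quality weights PETM was at 0.015. When 1 library was left out, PETM ran from -0.19 to 0.17, PETO from -0.013 to 0.31 and PETF from -0.063 to 0.12. ATPC ran from -0.043 to 0.19 and ATPD from -0.028 to 0.20. Of the 8, 1 had separate groups as deposited. None did at equal sums (0.662% of all tested genes higher without overlap) or after quantile normalization (3.72%). There were 6 without both libraries that stood apart (18.3%) and 1 to 5 without single ones (951 to 1589 genes). Over all genes the count at the adjusted threshold was 2 (both lower) at equal sums, 26 with quality weights (1000 µM replicate 1 weighing 6.58), 21 with the residual component, 3 without both libraries and 0 to 2 without single ones (2 without 6 µM replicate 1, 1 without 1000 µM replicate 3). Apart from the shift at equal sums, the cause of these changes in counts and signs was not tested. With a replicate block 0 of the 8 genes and 0 of all genes were called, with 306 at an unadjusted p under 0.05. Deviations of same-numbered libraries correlated at -0.40, 0.51 and -0.50, too mixed in sign to settle pairing. The list of 17 identifiers stayed at 0 called genes in all 20, and the median of the 8 lay between -0.028 and 0.18; both were added to the alternatives after seeing the data. Before adjustment, 354 genes had p under 0.05 in limma. Omitting the filter gave 804, or 618 once genes at 0 in every library were dropped from that, and there were 172 at a minimum mean of 5 FPKM. Counted likewise there were 1519 under the residual component, 1272 under quality weights and 638 when the pair that stood apart was omitted. Depth was unknown and limits statements under 1 FPKM.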
